A study of Mus musculus with 4 samples.

Results

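The genes described here are 10 immediate early transcription factor genes, chosen by symbol from a fixed list: Fos, Fosb, Fosl2, Jun, Junb, Jund, Egr1, Atf3, Ier2 and Nr4a1, of 32285 features in the deposited matrices. All 10 were found by symbol, and all 10 passed the minimum of 50 UMIs (unique molecular identifiers, the unit that counts captured transcripts) over both libraries in every comparison and cell class below. They were followed through 6 cell classes of the mouse aorta in 4 single-cell RNA libraries, 1 library per group.

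Immediate early genes are switched on through factors that are already present in the cell, without the need for new protein. Growth factors, stretch, calcium and stress reach them through MAP kinases that act on serum response factor and its partners, and through factors that bind the cyclic AMP response element. Fos, Fosb and Fosl2 encode partners of the Jun proteins, and the pairs form the transcription factor AP-1; Atf3 encodes a related leucine zipper protein. Egr1 encodes a zinc finger activator, Nr4a1 an orphan nuclear receptor and Ier2 a small nuclear protein. In the vessel wall these genes are known for their response to injury and mechanical load, and in many tissues they are also known to be switched on while cells are freed by warm enzymes. The aortas here were digested with collagenases and liberase before loading and no undigested tissue was measured, so transcript present in the intact wall and transcript made during digestion cannot be told apart.

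Values are given in 1 order throughout: WT and then LysM-DKO, both on normal diet, followed by WT/ApoE-/- and then LysM-DKO/ApoE-/-, both on western diet. In the rest of the text the ApoE-/- names stand for the western diet groups. LysM is the older name of lysozyme, whose Lyz2 promoter is active in macrophages and other myeloid cells. The labels spell out neither DKO nor the age, sex or number of mice per library, and the series title concerns the endocytic adaptors called epsins. ApoE-/- mice lack the lipoprotein component that clears cholesterol-rich particles, and they develop atherosclerosis on a western diet. Diet, ApoE genotype, software version (6.0.1 on normal diet and 6.1.2 on western diet) and sex change together: Xist was at 950 and 950 UMIs per 1000000 (CPM) over all kept barcodes on normal diet against 0.636 and 0.563 on western diet, and Ddx3y was at 0 and 0 against 117 and 124. Their parts in any difference between diets cannot be told apart.

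After barcodes under 1000 UMIs or over 10% mitochondrial UMIs were dropped, 7758, 8230, 13744 and 8133 were left, with medians of 4167, 3404, 2103 and 6761 UMIs. Between 38 and 129 barcode sequences were shared by any pair of libraries. Epn1 and Epn2, the epsin genes, gave 39, 60, 205 and 30 UMIs and 17, 37, 130 and 11 UMIs in macrophage barcodes, which is 81.7, 54.5, 52.4 and 42.7 CPM for Epn1 and 35.6, 33.6, 33.2 and 15.7 CPM for Epn2. A 3′ read outside the deleted stretch is still counted, and therefore these levels check nothing about the deletion. Macrophage Apoe was at 7012, 5435, 8.44 and 8.55 CPM, in the direction of the ApoE label, and macrophage Lyz2 was at 3696, 977, 4126 and 798 CPM, lower in both LysM-DKO libraries.

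Each barcode took the first class whose rule it met, in the order macrophage, B, T, endothelial, fibroblast and smooth muscle. Smooth muscle was the most numerous class, with 3690, 3487, 8836 and 6636 barcodes, and macrophages gave 92, 208, 939 and 135. LysM-DKO/ApoE-/- held only 14 B and 33 T barcodes, under the minimum of 50, so that comparisons with this library use 4 classes. Among the 6 classes, markers that the rules did not use were highest in their own class, except 1 of 5 T markers in LysM-DKO/ApoE-/-. Barcodes that met no rule and were not rich in hemoglobin numbered 832, 939, 2089 and 227. In LysM-DKO/ApoE-/- their summed fibroblast markers stood at 23230 CPM, above the 22065 CPM of the fibroblast class. Endothelial barcodes were mixed: 71.7 to 87.8% of them met another class rule as well, and their summed smooth muscle markers stood at 16281 to 22979 CPM, beside 26393 to 35355 CPM in smooth muscle barcodes and 4065 to 9504 CPM in the other classes. Their endothelial markers summed to 162 to 804 CPM. A repeat on barcodes that met only 1 rule is given below for genotype ratios of endothelial Fos (normal diet) and Atf3 (both diets). An estimate scaled by a smooth muscle transcript is given for the normal diet libraries. The other endothelial ratios and medians, with those between diets, have no such repeat beside them.

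Promoter sequences were read from RefSeq (GRCm38.p6) where the table held the gene, which was so for 8 of the 10 members, Egr1 and Ier2 being the others. Each run is the 250 bases before the RefSeq start, 5′ to 3′ on the gene's strand, and capitals mark TGACG, the core of that element, or CGTCA, which is TGACG on the other strand. Fos lies at chr12:85473640-85473889 (plus strand), Fosb at chr7:19310046-19310295 (minus strand) and Nr4a1 at chr15:101266596-101266845 (plus strand). They are shown because Fos and Nr4a1 are among the members that differ most between the diets in WT smooth muscle below. Fosb is shown as the closest relative of Fos. Atf3 differs more there and is not shown. Each promoter shown holds the marked letters, and those of Fosl2, Jun and Jund, which do not, are left out.
Fos: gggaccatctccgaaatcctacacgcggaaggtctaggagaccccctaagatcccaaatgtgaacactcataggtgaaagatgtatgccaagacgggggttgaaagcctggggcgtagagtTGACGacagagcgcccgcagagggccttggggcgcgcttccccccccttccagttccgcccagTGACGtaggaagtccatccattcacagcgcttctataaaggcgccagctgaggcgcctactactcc
Fosb: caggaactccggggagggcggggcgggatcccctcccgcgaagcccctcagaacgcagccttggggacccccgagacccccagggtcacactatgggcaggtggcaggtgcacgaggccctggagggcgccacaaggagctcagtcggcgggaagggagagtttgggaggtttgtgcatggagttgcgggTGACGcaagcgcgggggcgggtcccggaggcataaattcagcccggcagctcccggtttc
Nr4a1: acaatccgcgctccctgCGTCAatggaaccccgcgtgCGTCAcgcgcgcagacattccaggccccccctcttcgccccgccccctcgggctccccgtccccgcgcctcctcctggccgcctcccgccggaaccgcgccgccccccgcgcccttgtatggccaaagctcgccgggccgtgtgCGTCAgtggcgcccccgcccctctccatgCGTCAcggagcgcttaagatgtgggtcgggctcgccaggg

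The core TGACG, searched on both strands, was found in 5 of the 8 promoters: those of Fos, Fosb, Junb, Atf3 and Nr4a1. Nr4a1 held 4 copies, the nearest starting 40 bases before the start. Fos held copies starting 129 and 66 bases before the start. Of 32817 RefSeq promoters of this length, 17.7% held TGACG. The full element TGACGTCA was in 0 of the 8 (1.55% of all promoters), the AP-1 site (TGACTCA or TGAGTCA) in 0 of the 8 (4.46%), the CArG box in 0 of the 8 (1.47%), and GGGCGG, bound by SP1, in 6 of the 8 (32.7%). The core TGACG overlaps the full element by its letters. A missing match says only that these letters are not in this window. The RefSeq start is that of the GENCODE M21 gene for Fos and Jun and differs from it for the other 6. For Nr4a1, Atf3, Fosl2 and Fosb it lies inside the gene.

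Smooth muscle, fibroblast and endothelial barcodes carried the most immediate early transcript. The 10 genes together made up 1.57, 1.21, 0.826 and 0.902% of all UMIs in smooth muscle. In fibroblasts they made up 1.53, 1.29, 0.805 and 1.12%, and in endothelial barcodes 1.62, 1.29, 0.867 and 1.08%. Macrophages were lower, at 0.982, 0.757, 0.549 and 0.716%. In the first 3 libraries B barcodes were at 0.570, 0.495 and 0.548% and T barcodes at 0.564, 0.589 and 0.702%. T barcodes were thus above macrophages in WT/ApoE-/-. In smooth muscle, fibroblasts and endothelial barcodes, called wall classes below, WT on normal diet was highest and WT/ApoE-/- lowest, and in macrophages as well. The exact intervals of these shares, which cover counting error only, did not touch between any of the 4 libraries in smooth muscle.

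**Figure D1:**
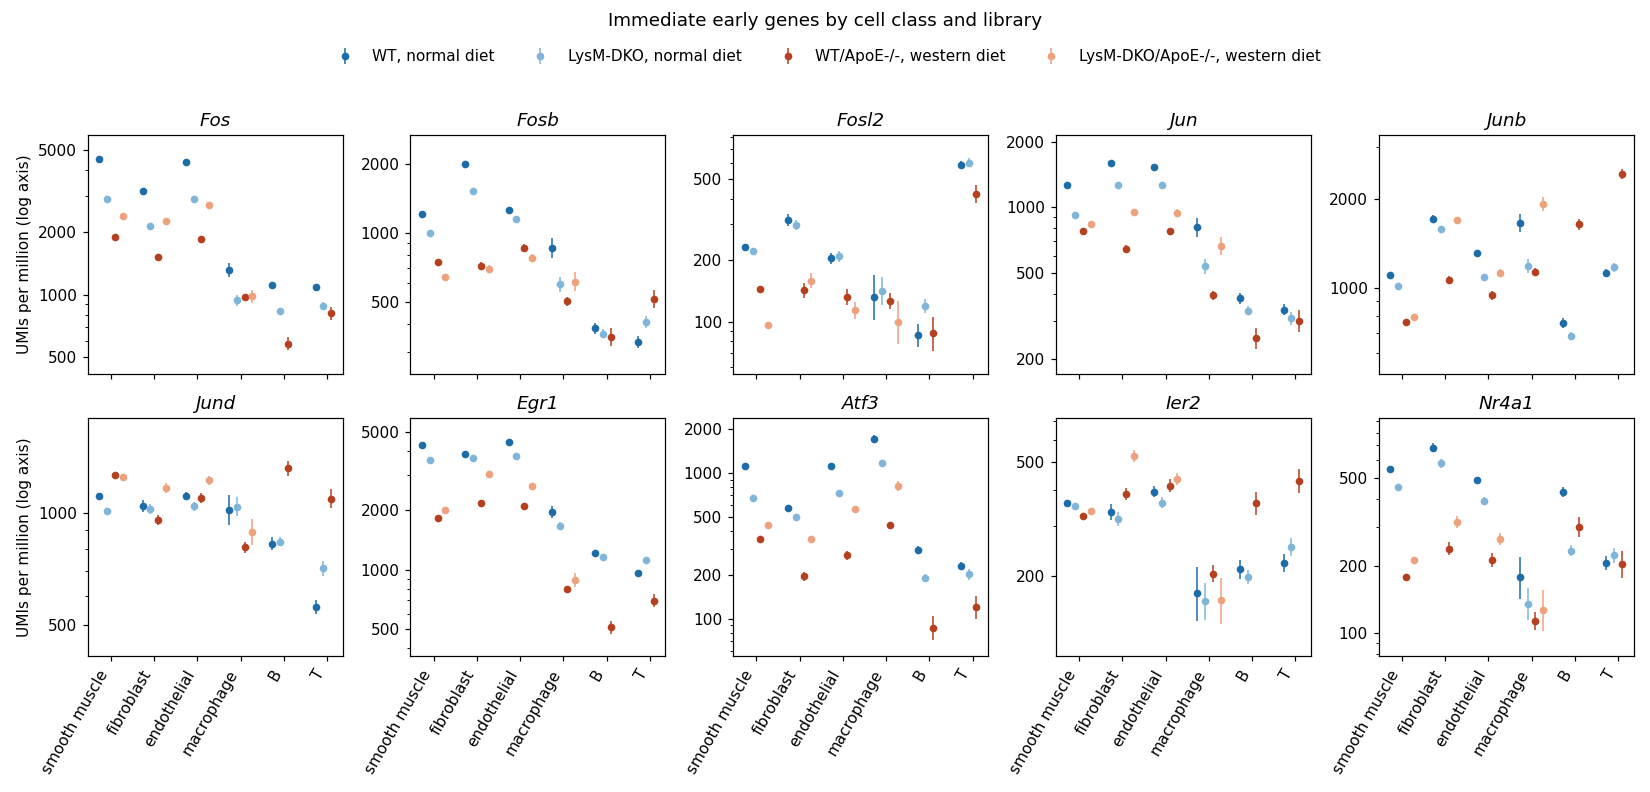
CPM of each of the 10 genes (log axis, own scale per panel) by cell class, with 1 point per library and exact 95% Poisson intervals that cover counting error only; classes under 50 barcodes are left out. Fos and Egr1 are lower in both western diet libraries than in both normal diet libraries in smooth muscle, Fosl2 stands highest in T barcodes in the 3 libraries plotted there, and Atf3 stands highest in macrophages.

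Fos (ENSMUSG00000021250, chr12:85473890-85477273, plus strand), the founding partner of Jun in AP-1, was at 4502, 2897, 1888 and 2385 CPM in smooth muscle. The 95% interval in WT on normal diet was 4475 to 4530 CPM, and no interval of the 4 libraries overlapped another. Endothelial barcodes gave 4357, 2900, 1856 and 2724 CPM and fibroblasts 3181, 2155, 1512 and 2280 CPM. In these 3 classes the library of WT on normal diet was highest and WT/ApoE-/- lowest. Macrophages gave 1321, 941, 971 and 982 CPM, and only WT on normal diet stood apart there. A single smooth muscle barcode of WT on normal diet held up to 232 Fos UMIs.

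Fosb (ENSMUSG00000003545, chr7:19302696-19310051, minus strand), the AP-1 partner whose short splice form lasts longest in stimulated neurons, was at 1212, 999, 748 and 643 CPM in smooth muscle. Fibroblasts of the normal diet were the highest of all, at 1997 and 1523 CPM, against 716 and 696 CPM in the western diet libraries. Both normal diet libraries were above both western diet libraries in smooth muscle, fibroblasts and endothelial barcodes.

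Fosl2 (ENSMUSG00000029135, chr5:32135801-32157842, plus strand) encodes Fra-2, an AP-1 partner that comes up late and is also used in T helper cells. It was highest in T barcodes, at 585, 601 and 423 CPM in the first 3 libraries. Smooth muscle gave 232, 222, 144 and 96.4 CPM. T was 1.86, 2.02 and 2.94 times the next class, and no neighbouring interval overlapped that of T. B barcodes, the other lymphocyte class, gave only 85.7, 119 and 87.7 CPM.

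Jun (ENSMUSG00000052684, chr4:95049034-95052222, minus strand), the core of AP-1, was at 1274, 920, 776 and 842 CPM in smooth muscle and 1610, 1275, 644 and 948 CPM in fibroblasts. Macrophages gave 811, 536, 394 and 665 CPM. Junb (ENSMUSG00000052837, chr8:84974484-84978718, minus strand), a weaker activator that often opposes Jun, behaved otherwise in the lymphocytes. Its smooth muscle levels were 1107, 1013, 768 and 797 CPM. T barcodes gave 1122, 1174 and 2428 CPM and B barcodes 758, 686 and 1637 CPM, so WT/ApoE-/- was highest in both. Macrophages gave 1659, 1183, 1130 and 1926 CPM, with LysM-DKO/ApoE-/- above the rest.

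Jund (ENSMUSG00000071076, chr8:70698949-70700616, plus strand), the Jun gene that is expressed in resting cells, had a narrow range in the wall classes. It was at 1106, 1008, 1261 and 1246 CPM in smooth muscle, 1043, 1023, 957 and 1166 CPM in fibroblasts and 1109, 1040, 1096 and 1219 CPM in endothelial barcodes. The highest library was 1.25 times the lowest in smooth muscle, against 2.38 times for Fos and 1.12 times for Ier2. Jun, Junb, Jund and Atf3 each overlap a gene on the opposite strand in GENCODE M21 (Junos, Prdx2, Gm11175 and Gm24748), and whether the counting used strand is not given in the sources used here.

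Egr1 (ENSMUSG00000038418, chr18:34859823-34864984, plus strand), the zinc finger activator of the injured wall, was at 4286, 3611, 1823 and 2018 CPM in smooth muscle. Endothelial barcodes gave 4450, 3757, 2106 and 2662 CPM, and macrophages 1962, 1672, 802 and 886 CPM. Both normal diet libraries were above both western diet libraries in these 3 classes. Fibroblasts had the same order, with 3869 and 3683 CPM against 2188 and 3062 CPM.

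Atf3 (ENSMUSG00000026628, chr1:191170296-191218039, minus strand), a stress-induced repressor that restrains inflammatory genes in macrophages, was highest in macrophages in all 4 libraries, at 1711, 1162, 440 and 812 CPM. Macrophages were 1.53, 1.60, 1.25 and 1.44 times the next class. Smooth muscle gave 1115, 669, 351 and 437 CPM. WT/ApoE-/- was the lowest library in smooth muscle, fibroblasts (576, 501, 196 and 351 CPM), endothelial barcodes (1119, 725, 271 and 563 CPM) and macrophages.

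Ier2 (ENSMUSG00000053560, chr8:84661331-84662852, minus strand) had a narrow range in smooth muscle, where it gave 361, 352, 324 and 338 CPM. Its highest fibroblast level was that of LysM-DKO/ApoE-/-, with 336, 317, 387 and 526 CPM over the libraries. Macrophages had the lowest level of any class in all 4 libraries, at 174, 163, 203 and 164 CPM. Nr4a1 (ENSMUSG00000023034, chr15:101254269-101274795, plus strand), a receptor induced by antigen in lymphocytes, was at 547, 454, 178 and 213 CPM in smooth muscle and 685, 581, 240 and 315 CPM in fibroblasts. Its B levels were 433, 235 and 301 CPM.

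Free RNA limits how far the lymphocyte levels can be read. Barcodes with at least 50% hemoglobin UMIs and no class, 273 and 199 in the normal diet libraries, should make little new transcript, yet after each barcode was thinned to 1000 UMIs a Fos UMI was seen in 60.1% (54.0 to 65.9) and 52.3% (45.1 to 59.4) of them. The shares before thinning were 81.7 and 86.9%, at median depths of 2248 and 2212 UMIs. B barcodes, with medians of 2952 and 3518 UMIs, gave 59.5 and 50.4% after thinning and 92.5 and 89.7% before. T barcodes, with medians of 4299 and 3721 UMIs, gave 53.7 and 48.2% after thinning and 95.8 and 91.6% before. These Fos shares are at or below that of the hemoglobin-rich barcodes, so they are not read as expression. Single barcodes went higher: the most Fos UMIs in 1 barcode were 88 and 87 in B, 122 and 73 in T, and 11 and 8 in the hemoglobin-rich barcodes. Many of the B and T barcodes also met another class rule, 62.1 to 71.3% of them in these libraries.

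The smooth muscle actin gene Acta2, which none of the blood cells should make, was used as a second measure. In WT and LysM-DKO on normal diet the hemoglobin-rich barcodes held 276 and 248 Fos UMIs for each 1000 Acta2 UMIs, and B barcodes held 264 and 242. Fos, Egr1 and Atf3 at the hemoglobin-rich ratio would reach 104, 103 and 105% of the B level in WT and 103, 102 and 81.6% in LysM-DKO. In T barcodes they would reach 79.2, 97.9 and 100% in WT and 96.4, 106 and 77.1% in LysM-DKO. Fosl2 in T barcodes is not of this kind, since the same ratio reached 9.51 and 9.12% of its level there. Its thinned share was 43.9 and 42.5% in T barcodes, against 6.59 and 4.02% in hemoglobin-rich and 6.73 and 10.5% in B barcodes, and before thinning 82.1 and 77.4, 12.1 and 11.6, and 21.1 and 30.9%. Hemoglobin took up 72.5 and 67.5% of the UMIs in hemoglobin-rich barcodes, which lowers their shares.

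Junb in T barcodes was also above this estimate, which reached 21.1 and 24.7% of its level. In macrophages the estimate reached 10.8 and 9.63% of the Atf3 level and 11.4 and 17.7% of the Junb level, but 52.0 and 65.2% of the Fos level and 51.3 and 85.1% of the Nr4a1 level. In fibroblasts it reached 25.6 and 35.6% for Fos and 14.8 and 19.3% for Fosb. In endothelial barcodes it was much closer to the level: 87.3 and 86.8% for Fos, 93.01 and 94.01% for Egr1, 104 and 120% for Nr4a1, 90.9 and 63.4% for Atf3 and 59.9 and 50.6% for Jun. In WT the hemoglobin-rich and smooth muscle barcodes held Fos and Acta2 in like ratios (276 and 258). For endothelial barcodes of WT, free RNA and smooth muscle RNA therefore cannot be told apart by this estimate. In LysM-DKO on normal diet the ratios were further apart, at 248 and 191. The parts of free RNA and smooth muscle RNA in its endothelial barcodes were not tested. The western diet libraries held 34 and 17 hemoglobin-rich barcodes, too few for this estimate, and the part of free RNA there was not tested.

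**Figure D2:**
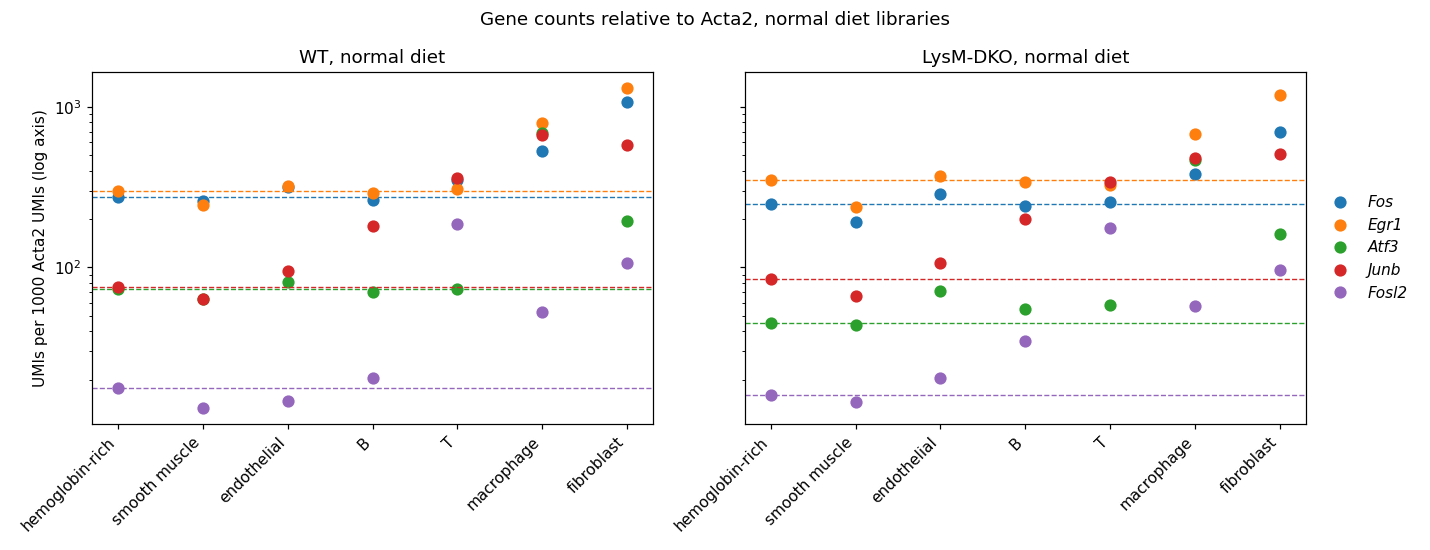
UMIs of 5 of the genes for each 1000 Acta2 UMIs (log axis) by cell class in the normal diet libraries, with dashed lines at the value of the hemoglobin-rich barcodes. Fos, Egr1 and Atf3 of B barcodes lie close to their lines (264 against 276 for Fos in WT), while Fosl2 in T and Atf3 and Junb in macrophages lie far above theirs.

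Smooth muscle barcodes usually carried several members at once. After thinning to 1000 UMIs, the median smooth muscle barcode showed 6, 5, 4 and 4 of the 10 genes. Barcodes with 5 or more made up 68.8% (67.2 to 70.2), 61.3% (59.7 to 62.9), 48.2% (47.1 to 49.2) and 49.0% (47.8 to 50.2). Fibroblasts gave 71.8, 68.6, 47.9 and 60.2%, and hemoglobin-rich barcodes of the normal diet 8.42 and 8.04%. The last are not on a like footing, since hemoglobin took up 72.5 and 67.5% of the UMIs there. Of the UMIs that are not hemoglobin, the members made up 1.26 and 1.04% in hemoglobin-rich barcodes. In smooth muscle of the same libraries they made up 1.60 and 1.24%. Barcodes with 0 members were rare in smooth muscle, at 0.623, 0.746, 1.23 and 2.19%.

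**Figure D3:**
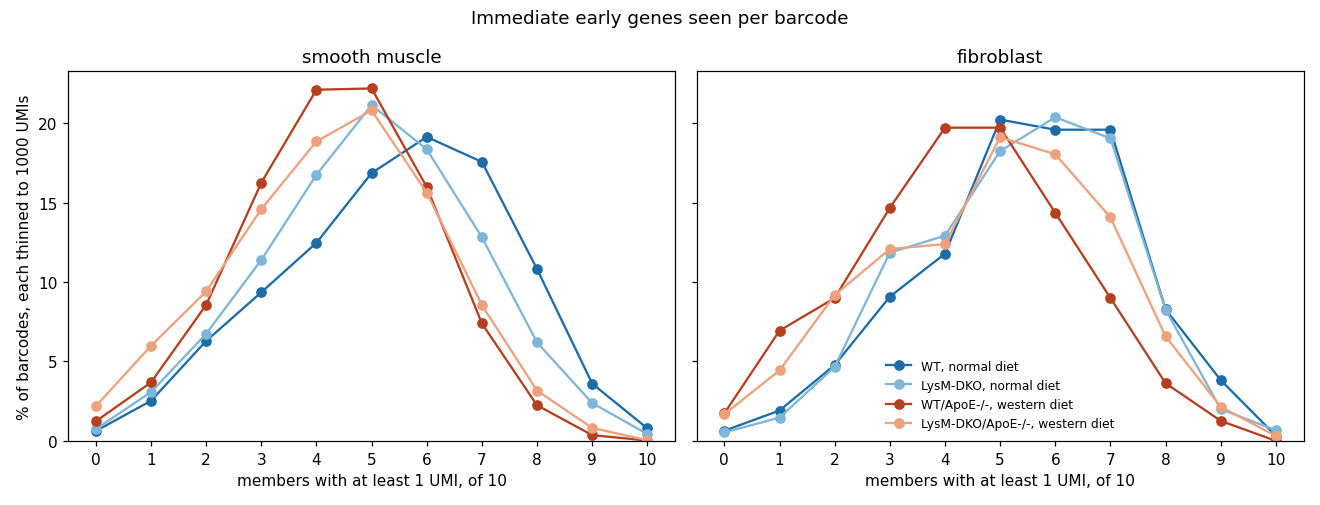
Percent of barcodes, each thinned to 1000 UMIs, by the number of the 10 genes with at least 1 UMI, in smooth muscle (left) and fibroblasts (right), with 1 line per library. In smooth muscle the median is 6 in WT on normal diet and 4 in both western diet libraries, and all 4 distributions have a single peak.

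Fos itself was seen in 84.8, 78.2, 73.9 and 75.2% of thinned smooth muscle barcodes, and in 97.6, 94.8, 89.0 and 93.9% before thinning. Most members went with it. In WT on normal diet, thinned smooth muscle barcodes with Fos held 4.50 Egr1 UMIs on average against 1.35 in barcodes without it, and 1.32 against 0.45 for Fosb. Fosl2 (0.26 against 0.25) and Jund (1.03 against 0.91) were nearly the same with and without Fos. Over the 4 libraries that ratio was 1.61 to 3.34 for Egr1, 1.36 to 2.29 for Jun, 1.53 to 2.43 for Atf3, at most 1.26 for Fosl2 and 1.08 to 1.14 for Jund.

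Across the 22 class and library sums of at least 50 barcodes, which share libraries, the log2 levels of Fos, Fosb, Jun and Egr1 followed each other, with Pearson r of 0.83 to 0.94 for their pairs. Junb gave -0.12 with Fos and Fosl2 gave -0.46 with Jund. By the same measure over 3243 other genes, Fos was most like Rasl11a (0.96), Tcf7l2 (0.95) and Syne2 (0.94), and Egr1 most like Errfi1 (0.94), Rnd3 (0.93) and Peg3 (0.93). Atf3 was most like Degs1 (0.91), Klf6 (0.90) and the heat shock gene Hspa1b (0.89). Nr4a1 was most like Nop58 (0.85), Gem (0.85) and Myc (0.84), Fosl2 most like Dusp10 (0.87), and Junb most like Ccnl1 (0.82). These values describe 22 sums dominated by differences between classes.

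The comparison of LysM-DKO with WT on normal diet asks what the myeloid alleles go with in unchallenged aortas. All 10 members were lower in LysM-DKO in smooth muscle and in fibroblasts, and 9 of 10 in endothelial barcodes. The counting interval lay below 0 for 9 members in smooth muscle, 7 in fibroblasts and 9 in endothelial barcodes. The differences were small: 7 of 60 pairs of member and class were lower by 1.5 fold or more and 0 were higher, where 3.67% of all gene and class pairs were lower and 7.94% higher. By class, 2 members were lower past that size in smooth muscle (2.18% of all genes there), 2 in endothelial barcodes (2.81%), 2 in B barcodes (4.43%) and 1 in macrophages (8.21%). The median log2 ratio of the members was -0.26 in smooth muscle, -0.16 in fibroblasts and -0.44 in macrophages, beside 0.00, 0.00 and 0.03 for all genes. T barcodes had a median of 0.09, beside 0.11 for all genes.

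Atf3 in smooth muscle had the largest difference of that class, a log2 ratio of -0.74 (95% counting interval -0.77 to -0.71), or 1.67-fold lower. Fos followed at -0.64 (-0.65 to -0.62), or 1.55-fold lower, and Jun at -0.47. Ier2 was at -0.04 (-0.08 to 0.01). In macrophages, the class a LysM allele is directed at, Jun was at -0.60 (-0.78 to -0.41), Atf3 at -0.56 and Fosb at -0.53, from 92 and 208 barcodes. Nr4a1 in B barcodes had the largest ratio of all 60, at -0.88 (-0.99 to -0.77), from 433 to 235 CPM. The estimate scaled by Acta2 was 35.5 and 67.9% of these B levels. With every barcode given equal weight, 4 pairs were lower past 1.5 fold and the macrophage median was -0.17. Endothelial Fos and Atf3, at -0.59 and -0.63, were at -0.28 and -0.12 among barcodes that met only the endothelial rule, and so no longer past 1.5 fold. Macrophages of WT were under 50 when barcodes had to meet only 1 rule, so that repeat could not be made for them.

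On western diet, in ApoE-/- mice, the same genotype comparison went the other way. Of 40 pairs, 7 were higher in LysM-DKO/ApoE-/- by 1.5 fold or more and 0 were lower, where 7.07% of all gene and class pairs were higher and 10.2% lower. They were 3 members in fibroblasts (7.75% of all genes there), 3 in macrophages (9.7%) and 1 in endothelial barcodes (7.76%). The median log2 ratio of the members was 0.46 in fibroblasts, 0.27 in endothelial barcodes, 0.16 in macrophages and 0.09 in smooth muscle, beside 0.05, 0.04, -0.05 and -0.01 for all genes. The macrophage median was 0.37 for barcodes of 1 rule and 0.40 with equal weight, and the smooth muscle median was 0.22 at 5% mitochondrial UMIs or less. The sign of the smooth muscle median was the same under every alternative tried. Whether the genotype difference itself differs between diets was not tested, since each group is 1 library.

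Atf3 had the largest ratios, at 1.05 (0.94 to 1.17) in endothelial barcodes, 0.89 (0.75 to 1.02) in macrophages and 0.84 (0.71 to 0.97) in fibroblasts, and 0.31 in smooth muscle. Junb and Jun in macrophages were at 0.77 (0.68 to 0.86) and 0.76 (0.60 to 0.91). With equal weight per barcode, macrophage Jun stood at 1.33. Fosl2 in smooth muscle was lower instead, at -0.58 (-0.64 to -0.52). Fosb was at -0.22 there. The macrophages of WT/ApoE-/- carried more smooth muscle RNA than those of LysM-DKO/ApoE-/-, with Acta2 at 4197 against 2362 CPM. In the same order, fibroblast markers summed to 10671 against 4788 CPM in endothelial, 5125 against 1460 CPM in smooth muscle and 3085 against 815 CPM in macrophage barcodes. Within the fibroblast class Col1a1 was at 8802 against 3776 CPM, Lum at 4973 against 2093 CPM and Gsn at 2555 against 5956 CPM. What part these differences had in the ratios was not tested.

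The comparison of diets within WT gave the largest differences of the 4. In WT/ApoE-/- on western diet, 31 of 60 pairs were lower by 1.5 fold or more than in WT on normal diet and 7 were higher, where 13.8% of all gene and class pairs were lower and 18.5% higher. In smooth muscle 7 of 10 members were lower past 1.5 fold, beside 14.8% of 13681 genes, 8 were in fibroblasts (13.6%), 6 in endothelial barcodes (15.3%), 5 in macrophages (14.7%), 4 in B barcodes (13.3%) and 1 in T barcodes (9.66%). The median log2 ratio of the members was -0.71 in smooth muscle, -1.11 in fibroblasts, -0.80 in endothelial barcodes and -0.60 in macrophages, beside 0.00, 0.13, -0.01 and 0.28 for all genes. Where the ratios were centred on the median gene instead of on total UMIs, the macrophage median was -0.87, and it was -0.37 at 5% mitochondrial UMIs or less. Fibroblast markers were also higher in other classes of WT/ApoE-/-: 6 of them summed to 1632 CPM in WT on normal diet and 5125 CPM in WT/ApoE-/- in smooth muscle, 2926 and 10671 CPM in endothelial barcodes, and 863 and 3085 CPM in macrophages. Within the fibroblast class Gsn was at 13823 and 2555 CPM and Col1a1 at 1588 and 8802 CPM. The part of these in the ratios was not tested.

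Atf3 was at -2.04 (-2.15 to -1.94) in endothelial barcodes, 4.12-fold lower, at -1.96 in macrophages, -1.67 in smooth muscle and -1.56 in fibroblasts. Nr4a1 was at -1.62 and Fos at -1.25 in smooth muscle, 3.07-fold and 2.38-fold lower. Jund, the Jun gene of resting cells, was at 0.19 in smooth muscle and -0.02 in endothelial barcodes. Ier2 was at -0.16 in smooth muscle, 0.21 in fibroblasts and 0.22 in macrophages.

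The 7 higher pairs of this comparison all lay in the lymphocytes, 3 in B barcodes (13.2% of all genes there) and 4 in T barcodes (24.3%), where the share of all genes was also large. Junb was at 1.11 (1.02 to 1.20) in B and 1.11 (1.04 to 1.19) in T barcodes, 2.16-fold higher in both. Jund was at 0.67 and 0.96, Ier2 at 0.77 and 0.96, and Fosb at 0.62 in T barcodes. The lower pairs there were Fos, Jun, Egr1 and Atf3 in B barcodes and Atf3 in T barcodes, with Atf3 at -1.76 and -0.93. On normal diet the estimate scaled by Acta2 was 104, 73.4, 103 and 105% of these B levels and 100% of the T level of Atf3 in WT. Of the 31 lower pairs, these 5 lymphocyte pairs start from levels at this estimate or, for Jun, not far above it. For the endothelial pairs that were lower, it was 87.3% of the WT level for Fos, 120% for Fosl2 and 59.9% for Jun. It was 93.01% for Egr1, 90.9% for Atf3 and 104% for Nr4a1, so most of those pairs also start near this estimate. Among barcodes that met only 1 rule, Junb was at 1.51 in B and 1.29 in T. B and T barcodes that met another rule made up 63.6 and 62.1% in WT on normal diet and 21.3 and 23.2% in WT/ApoE-/-, and the median B barcode held 2952 and 1924 UMIs. The part of this difference in the lymphocyte ratios was not tested further.

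**Figure D4:**
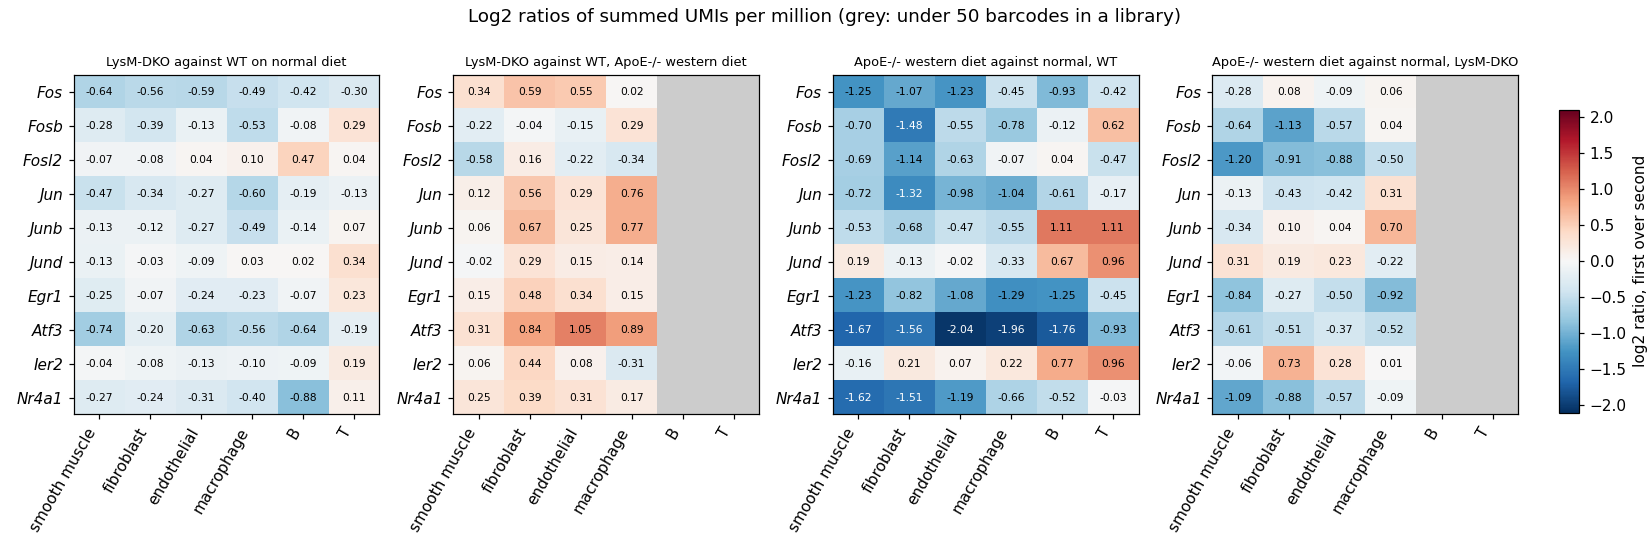
Log2 ratios of CPM, first library over second, for the 10 genes (rows) in the cell classes (columns), 1 panel per comparison; grey columns had under 50 barcodes in a library. The WT diet panel holds the darkest blue cells (Atf3 in endothelial barcodes, -2.04) and the red Junb cells of B and T (1.11), and the wall classes are mostly blue in the normal diet genotype panel and mostly red in the western diet one.

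Within LysM-DKO fewer pairs differed between diets, and the difference from WT in this was not tested. Of 40 pairs, 10 were lower on western diet by 1.5 fold or more and 2 were higher, where 13.8% of all gene and class pairs were lower and 12.3% higher. In smooth muscle 5 of 10 members were lower past 1.5 fold, beside 19.6% of all genes there, 3 in fibroblasts (8.5%), 1 in endothelial barcodes (11.9%) and 1 in macrophages (11.9%). The count of lower pairs was 6 at 5% mitochondrial UMIs or less and 16 with median-ratio scaling. The median was -0.48 in smooth muscle (-0.29 at 5% mitochondrial UMIs or less), -0.39 in endothelial barcodes, -0.35 in fibroblasts and -0.04 in macrophages, beside 0.00, 0.05, 0.18 and 0.10 for all genes. The macrophage median had no stable sign: it was 0.27 at 5% mitochondrial UMIs or less and -0.42 in barcodes of 1 rule. Fosl2 was at -1.20 (-1.26 to -1.14) and Nr4a1 at -1.09 (-1.13 to -1.05) in smooth muscle, and Egr1 at -0.84. Fos was at -0.28 there. The higher pairs were Ier2 in fibroblasts, at 0.73 (17.6% of all genes were higher there), and Junb in macrophages, at 0.70 (17.9%).

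At a threshold of 2 fold, genotype on normal diet gave 0 pairs lower and 0 higher (0.738 and 2.8% of all gene and class pairs). Genotype on western diet gave 1 higher, Atf3 in endothelial barcodes, and 0 lower (1.84 and 4.85%). Diet gave 19 lower and 2 higher in WT (6.05 and 7.68%), and 3 lower and 0 higher in LysM-DKO (7.62 and 3.16%).

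Each library enters a pair of these comparisons, so they are not independent of each other. WT on normal diet was the highest library for the members in the wall classes and WT/ApoE-/- the lowest, and both enter the WT comparison of diets. The order held over depth. In smooth muscle the 10 genes summed to 14633, 11175, 13974 and 17433 CPM in WT on normal diet, over barcodes of 1000 to 2000, 2000 to 4000, 4000 to 8000 and 8000 or more UMIs. LysM-DKO on normal diet gave 11648, 9007, 12089 and 13077 CPM in the same bands. WT/ApoE-/- gave 7534, 7585, 8543 and 8549 CPM, below both normal diet libraries in each band. LysM-DKO/ApoE-/- gave 10932, 7984, 8624 and 9512 CPM, above WT/ApoE-/- in each.

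The sum was also taken by mitochondrial share, in smooth muscle barcodes with under 2.5, 2.5 to 5 and 5 to 10% mitochondrial UMIs. In LysM-DKO/ApoE-/- it was 12750, 10705 and 7973 CPM, lower in each higher band. In the other libraries the middle band was highest, with 15020, 17408 and 13158 CPM in WT on normal diet, 8599, 9039 and 7400 CPM in WT/ApoE-/-, and 11727, 13337 and 11289 CPM in LysM-DKO on normal diet. LysM-DKO/ApoE-/- stood above LysM-DKO on normal diet in the lowest mitochondrial band and below it in the others, so their order depends on that band, which held 93 and 220 barcodes.

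**Figure D5:**
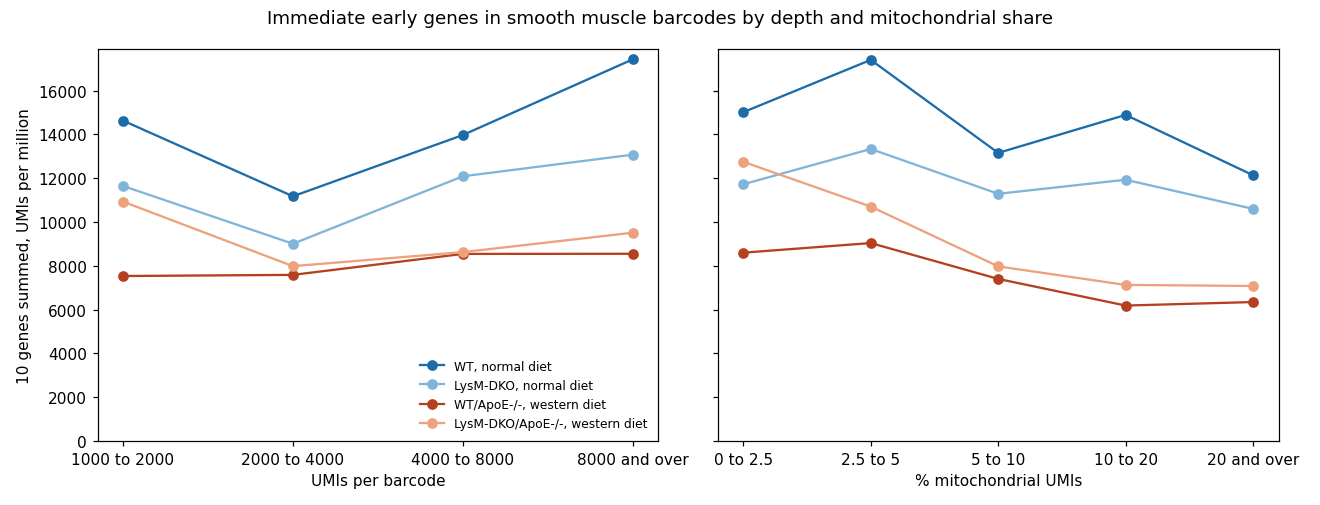
Summed CPM of the 10 genes in smooth muscle barcodes, by UMIs per barcode (left) and by percent of mitochondrial UMIs (right, which also shows the barcodes over 10% that the rule leaves out), with 1 line per library. WT on normal diet is the highest line in each band and WT/ApoE-/- the lowest; the lines of the LysM-DKO libraries cross in the band under 2.5%.

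Other early response genes, a list of 48 matched genes outside the members, were counted in the same way. In smooth muscle 37 of 48 were lower in LysM-DKO on normal diet, yet only 1 was lower past 1.5 fold and 1 higher (2.18 and 8.5% of all genes), with a median of -0.12. Socs3, which encodes a brake on cytokine signalling, had the lowest ratio, at -0.87, and Cebpb, a leucine zipper factor, the highest, at 0.74. On western diet the genotype median was -0.03, with 5 genes lower and 1 higher past 1.5 fold, where 12.3% of all genes were lower and 4.61% higher, so the share of the list was near that of all genes. Between diets the list was lower in WT, with 30 of 48 lower past 1.5 fold, 1 higher (14.8 and 11.4% of all genes) and a median of -0.76. In LysM-DKO 22 were lower past 1.5 fold and 1 was higher (19.6 and 8.5% of all genes), with a median of -0.53.

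Myc, the growth regulator, had the lowest ratio of the list in smooth muscle in both diet comparisons, at -1.96 (from 99.7 to 25.7 CPM) in WT and -2.29 (from 89.9 to 18.4 CPM) in LysM-DKO. Btg2, which restrains growth, was higher, at 0.56 and 0.90. In macrophages of WT, Arc was at -3.65 on western diet, from 132 to 10.5 CPM, and 23 of 47 list genes were lower past 1.5 fold, beside 14.7% of all genes. In macrophages the genotype median of the list was -0.32 on normal diet and 0.34 on western diet.

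The kinases and factors upstream, 19 matched genes such as Elk1 and Creb1, were near 0 in smooth muscle, with medians of 0.00 and 0.03 for genotype on normal and western diet and -0.01 and -0.13 for diet in WT and LysM-DKO. Other leucine zipper genes, 24 in the list and some of them, such as Cebpb, also in the early response list, had medians of 0.14 and -0.06 for genotype and -0.37 and -0.56 for diet.

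Heat shock chaperone genes, which respond to warmth and protein damage, were counted beside the members. All 12 were lower in LysM-DKO on normal diet in smooth muscle, 4 of them past 1.5 fold (2.18% of all genes), with a median of -0.43. Hspa1a was at -1.09 (699 to 328 CPM) and Hspa1b at -1.08 (494 to 234 CPM). Between diets the smooth muscle median was -0.24 in WT and 0.24 in LysM-DKO, where 4 genes were higher past 1.5 fold and 0 lower (8.5 and 19.6% of all genes), Hspb1 at 1.34 and Hsph1 at 1.20. In macrophages of WT, Hspa1b was at -3.13 on western diet, from 936 to 107 CPM. What part digestion had in either was not tested.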

How the data were processed

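The authors deposited 1 matrix per library of UMI counts per gene and barcode, whole numbers without scaling, from a 10x Genomics kit. Per the file headers Cell Ranger was version 6.0.1 for normal diet and 6.1.2 for western diet; the submitters' processing notes name Cell Ranger 6.1.2, Seurat 4.1.0 and mm10. Cell calling settings are not given in the sources used here. Total counts were 51281643, 50662515, 67450979 and 62510744 UMIs.

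Barcodes were classed by UMIs of marker genes (macrophage C1qa, C1qb and C1qc 5 or more; B Cd79a and Ms4a1 2; T Cd3d, Cd3e and Trac 2; endothelial Pecam1 and Cdh5 2; fibroblast Pdgfra and Serpinf1 3; smooth muscle Myh11 and Cnn1 3), and UMIs were summed per library and class. Ratios had 0.5 UMIs added; 50 UMIs over both libraries were required. Intervals are 95% exact Poisson (levels) or binomial (ratios, shares) and cover counting error only: with 1 library per group no test was made. No doublet caller was run; barcodes meeting 1 rule served as a guard. All members were named; of each list, at most the 2 largest ratios in each direction, and for each member the genes most correlated by log2 of CPM plus 10, among genes of mean CPM of at least 50. Members and lists were chosen with earlier results of these data known. Ratios were tested on simulated data. Python 3.11.15 was used with pandas 2.3.3, scipy 1.17.1, numpy 2.4.6 and, for plots, matplotlib 3.10.9. Alternatives were 2000 UMIs, 5% mitochondrial UMIs, barcodes of 1 rule, median-ratio scaling, equal weight per barcode, no count minimum, a 2 fold threshold and, added after seeing the data, smooth muscle with 3 rule UMIs per 1000.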

Additional observations from a re-analysis of the deposited data

Results flagged for a closer look

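In 2 of the gene and class pairs the genotype ratio passed 1.5 fold in opposite directions on the 2 diets. Jun in macrophages stood at a log2 ratio (LysM-DKO over WT) of -0.60 on normal diet and 0.76 on western diet. On western diet it was at 1401 against 462 CPM in barcodes of 2000 to 4000 UMIs. At 4000 to 8000 UMIs it was at 343 against 351 CPM. Atf3 in endothelial barcodes was at -0.63 on normal diet and 1.05 on western diet; among barcodes that met only the endothelial rule these were -0.12 and 1.02. The difference between the diets was not tested, since each group is 1 library.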

How the results depend on the processing

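Each group is 1 library, so depth limits counting error only, and variation between animals was not measured. No paired analysis was possible because each group is 1 library. Counts of pairs past 1.5 fold and medians (log2) that moved were these. With equal weight per barcode, LysM-DKO on normal diet had 1 pair higher and 4 lower, a smooth muscle median of -0.20 and a macrophage median of -0.17; on western diet 1 pair was lower and the medians were 0.13 and 0.40; the WT diet smooth muscle median was -0.75. In barcodes of 1 rule, 1 pair was higher for genotype on normal diet and 1 lower on western diet, where the macrophage median was 0.37; for diet in LysM-DKO 1 was higher and the macrophage median was -0.42. At 5% mitochondrial UMIs or less, smooth muscle medians were 0.22 for genotype on western diet, -0.67 for diet in WT and -0.29 in LysM-DKO, where 6 pairs were lower; macrophage medians were -0.37 in WT and 0.27 in LysM-DKO, the latter reversed from -0.04. At 2000 UMIs the western diet genotype median in smooth muscle was 0.058. Median-ratio scaling gave -0.87 in WT macrophages for diet and, in LysM-DKO, 16 lower and 1 higher pairs. With stricter smooth muscle, chosen after seeing the data, medians were -0.20 for genotype on normal diet, -0.75 for diet in WT and -0.58 in LysM-DKO. At 2 fold the lower pairs were 0 for genotype on normal diet, 19 for diet in WT and 3 in LysM-DKO, and the higher pairs 1 for genotype on western diet, 2 for diet in WT and 0 in LysM-DKO. The causes were not tested. The other 74 of these counts and medians were within the limits. Values other than these counts and medians were checked in the same way. In barcodes of 1 rule 100 moved and 80 did not, and with equal weight 97 moved and 103 did not. With stricter smooth muscle 26 moved and 14 did not, and at 5% mitochondrial UMIs 73 moved and 127 did not. For median-ratio scaling these were 43 and 157, and for 2000 UMIs 28 and 194.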
